A study of Mus musculus with 19 samples.

Results

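The effect of a dorsal root crush on sensory neurons that carried only a GFP virus was read from RNA-seq libraries of sorted GFP-expressing cells of the dorsal root ganglion (DRG). The libraries compared were the 4 labelled GFP-crush and the 5 labelled GFP-naive, which make 9 of the 19 libraries of the series and were chosen by their labels alone. The animals were 2-month-old male Lewis rats in the written methods, and the left C5–C8 ganglia received AAV5-CMV-fGFP, a virus that drives a membrane-bound GFP from a general promoter and not from a neuron-specific one. GFP-crush animals also had the dorsal roots of these ganglia crushed in the same surgery, GFP-naive animals had no crush, and ganglia of both groups were taken 8 weeks later. The sample labels name wild-type C57BL/6 mice instead of rats, and the reads were aligned to the mouse genome. The other 10 libraries carried α9 integrin and kindlin-1 (α9k1), with crush in 4 and without in 6, and were used for the shared estimate of the spread and for tests of a difference in the crush effect. The study calls its libraries biological replicates, but neither source says how many animals went into each, so the p-values measure the spread between libraries.

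A DRG neuron has a single axon that splits into a peripheral and a central branch. The peripheral branch regrows after injury, which switches on genes such as Atf3, Jun, Sprr1a and Gal. The central branch runs through the dorsal root into the spinal cord, and after injury its regrowth usually stops at the entry of the cord. Crush of the root cuts the central branch and leaves the peripheral one intact. The ganglion also holds satellite glia wrapped around each neuron, Schwann cells, resident macrophages that present antigen on MHC class II, fibroblasts and vessels, and each of these can leave RNA in a sort of dissociated cells. Dissociation itself is known to induce immediate early and heat shock genes, and cells of both groups went through it. Whether its effect differed between the groups was not tested.

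The crush and naive libraries were set apart along many genes. Of 12629 genes, 933 were higher in GFP-crush (7.39%) and 1984 were lower (15.7%) at an adjusted p under 0.1 in limma with 3 library-metric covariates, together 23.1% of the genes. Changes were mostly small. The median log2 fold change (log2FC, GFP-crush minus GFP-naive at equal covariates) was 0.51 among the genes called higher and -0.64 among those called lower, and it exceeded 1 in 185 and fell beyond -1 in 319. The balance between directions moved with the scaling: 1206 genes were higher and 1373 lower after quantile normalization, 1826 and 1180 after centring each library at its median, and 1242 and 1226 after removing trends with GC content and length. The median log2FC of all genes was -0.08, and 0.06 with median centring, so that a change of this size has no fixed sign. Without the library GFP-naive replicate 2 the counts dropped to 445 higher and 1057 lower, without GFP-crush replicate 1 the higher genes numbered 575 and without GFP-crush replicate 2 they numbered 523. The deposited values of the groups did not overlap in 2504 genes (19.8%).

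The libraries held between 36.4 and 87.6 M read pairs, of whose reads 47.5% to 53.2% aligned to the mouse genome. Of the aligned bases, 3.87% to 3.93% in GFP-crush and 3.89% to 3.99% in GFP-naive were mismatched. The species of the animals, on which the methods and the labels differ, was not tested. Neuronal markers were present in all 9 (mean of 10 genes, 8.31 to 8.81 on the deposited log2 scale), but so were markers of satellite glia and Schwann cells (mean of 14 genes, 8.70 to 9.24), and Apoe, a lipid carrier abundant in satellite glia, reached 14.55 to 15.87. The libraries therefore are not of neurons alone, and in bulk samples fewer cells of a type and less RNA per cell cannot be told apart. Coding bases made up 66.7% to 68.7% of aligned bases in GFP-crush and 69.0% to 69.9% in GFP-naive, and intergenic bases 4.88% to 5.98% and 4.17% to 4.71% (2-sided exact permutation tests, p = 0.0159 each, the smallest that 4 against 5 allow, and 0.0499 adjusted over 22 tests of library metrics and marker sums). The part of these differences in the results was not tested. Fermt1 and Itga9, which encode the kindlin-1 and α9 integrin that these animals did not receive, were at 0.42 to 0.80 and at 0.90 to 2.40 in the 9 libraries, and neither was called (adjusted p = 0.589 and 0.760 in limma).

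**Figure D1:**
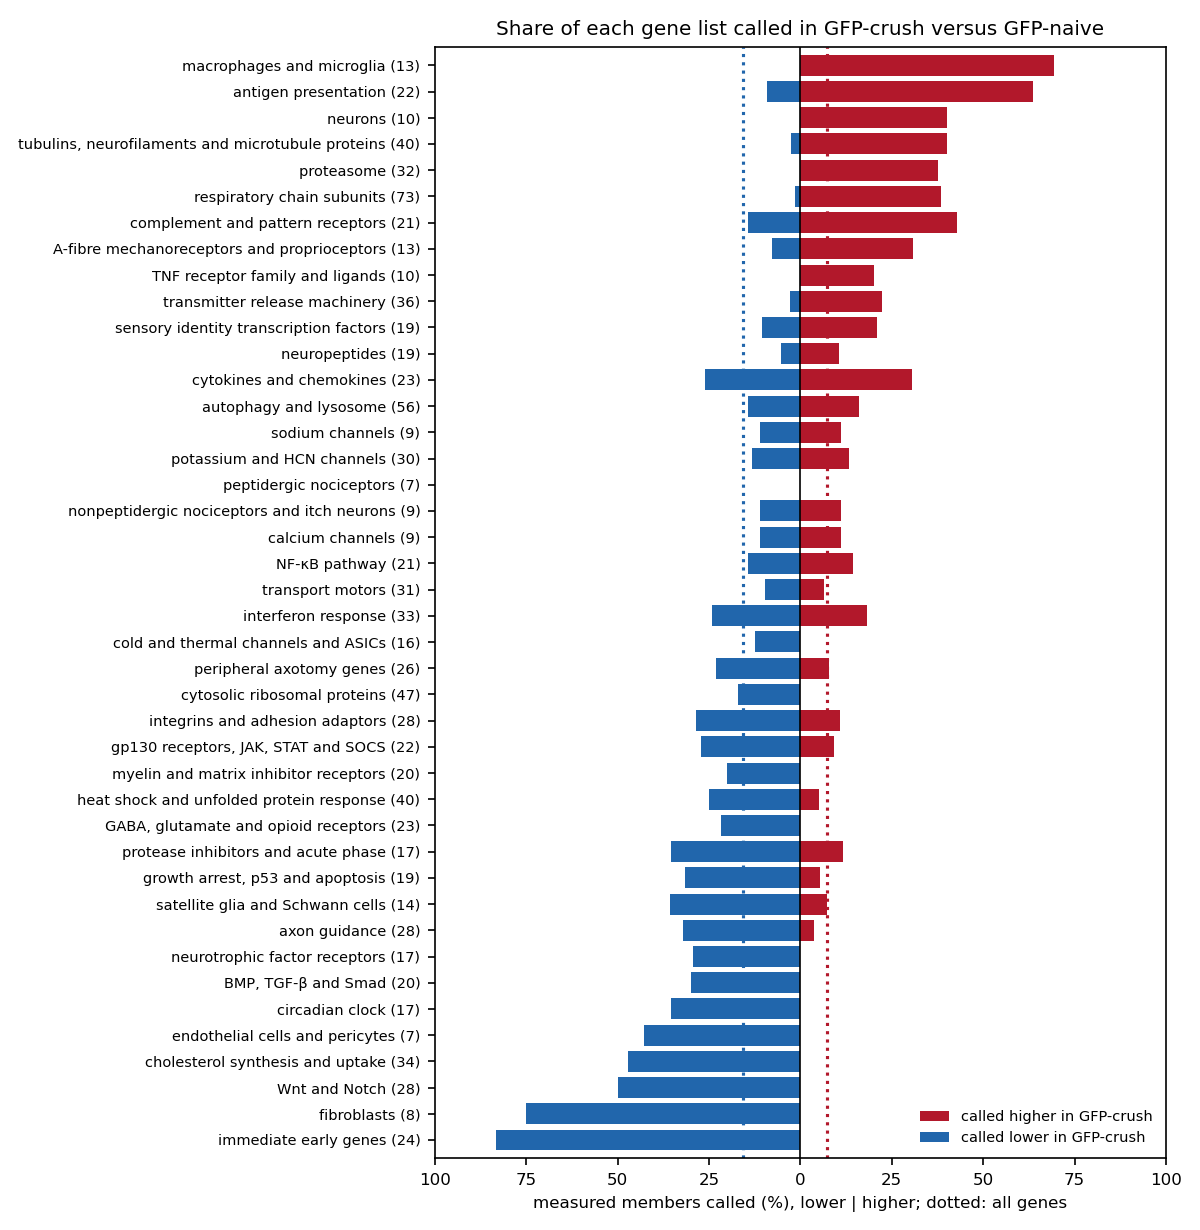
Share of the measured members of each gene list (number in brackets) called higher (right) or lower (left) in GFP-crush than in GFP-naive at an adjusted p under 0.1 in limma. Dotted lines mark the shares over all genes, 7.39% higher and 15.7% lower. Macrophage markers and antigen presentation genes lead on the higher side and immediate early genes on the lower side.

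The largest increase was in Slpi (chromosome 2, 164354070 to 164389095 in GRCm38), a secreted inhibitor of leukocyte proteases, which was at 9.09, 8.86, 9.35 and 9.70 in the GFP-crush libraries and at 4.30, 3.96, 2.34, 2.93 and 2.26 in the GFP-naive ones. Its log2FC of 6.29 (standard error 0.49, adjusted p = 8.53e-06 in limma) equals a 78.2-fold difference. Every crush library stood more than 4 log2 units above every naive library. Cxcl13 (chromosome 5, 95956951 to 95961068), a chemokine that attracts B cells, was at 8.77, 7.65, 8.41 and 8.43 after crush and at 3.88, 4.81, 4.29, 4.61 and 4.17 without it, with a log2FC of 3.85 ± 0.31 (SE, adjusted p = 9.54e-06 in limma). Cd40 (chromosome 2, 165055627 to 165072948), a TNF receptor family member of antigen-presenting cells, was at 4.62, 4.05, 5.0 and 4.76 against 1.0, 1.53, 0.80, 1.04 and 0.47. Its log2FC was 3.76 ± 0.35. The groups were far apart in all of these genes, and Cd40 was near the floor of the table in naive libraries.

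Slpi, Cxcl13 and Cd40 led the called protein-coding genes with separate groups and a level of at least 4 in the higher one, to which Npy (3.96), described further on, does not belong because its groups overlap. Further genes among the 12 with the largest increase by these conditions were Cxcl9, a chemokine induced by interferon-γ (log2FC 3.68 ± 0.29), Ccr7, the homing receptor of dendritic cells and lymphocytes (3.46 ± 0.46), Ubd, a ubiquitin-like protein induced by cytokines (3.16 ± 0.43), and Cst7, a cystatin of leukocytes (3.11 ± 0.28). Irf8, a transcription factor of macrophages and dendritic cells, rose by 3.03 ± 0.36 and was at 5.30, 4.52, 4.65 and 4.92 after crush against 2.0, 2.50, 2.65, 1.44 and 1.06. AA467197 rose by 2.96 ± 0.31, Ms4a7, a membrane protein of macrophages, by 2.90 ± 0.26, and Bcl2a1d, a survival factor of the Bcl2 family with close paralogs whose reads may be shared, by 2.80 ± 0.26. The 12th was H2-Ab1, an MHC class II chain. All 12 were called in each of the 19 fits that left out 1 library.

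**Figure D2:**
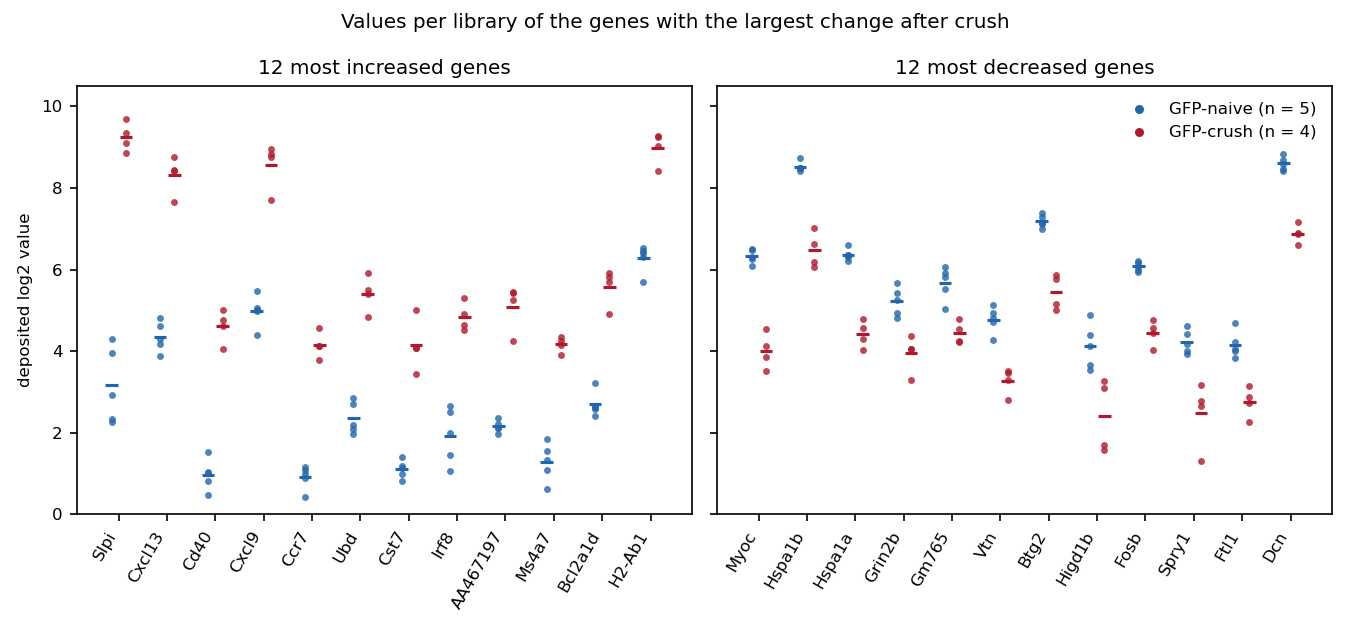
Deposited log2 values in each GFP-naive (blue, n = 5) and GFP-crush (red, n = 4) library for the 12 genes with the highest and the 12 with the lowest log2FC among called protein-coding genes whose groups do not overlap. Horizontal lines are group means. Slpi moves from a mean of 3.16 to 9.25, and Hspa1b from 8.52 to 6.47.

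Antigen presentation was the pathway list with the largest share of genes called higher in the fit with covariates on the deposited scale. Of its 22 measured genes, 14 rose and 2 fell (63.6% and 9.09%, against 7.39% and 15.7% of all genes), with a median log2FC of 0.50 against -0.08 over all genes. The class II genes led. H2-Ab1 was at 9.25, 8.41, 9.03 and 9.26 in GFP-crush and at 6.30, 6.54, 6.45, 6.40 and 5.69 in GFP-naive (log2FC 2.72 ± 0.25, adjusted p = 1.87e-05 in limma). H2-Aa, the partner chain, was at 8.50, 7.80, 8.51 and 8.66 against 5.59, 5.99, 5.83, 5.82 and 5.36. Cd74, the invariant chain that guides class II molecules to the endosome, was at 11.20, 10.64, 11.06 and 11.33 against 8.48, 8.84, 8.54, 8.63 and 8.17. In all of these the 4 crush libraries lay above the 5 naive ones, with GFP-crush replicate 2 the lowest of its group. The members that fell were the chaperones Canx (log2FC -0.54 ± 0.11) and Calr (-0.29 ± 0.10), which fold class I molecules but serve the endoplasmic reticulum at large. Calr was not called without GFP-crush replicate 1 (adjusted p = 0.136), GFP-crush replicate 2 (0.161) or GFP-naive replicate 2 (0.184). Genes of the H2 family are near copies of each other, and how reads were split between them is uncertain.

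Macrophage markers rose beside these genes. Of 13 measured, 9 were higher and none lower (69.2%, against 7.39% of all genes higher), with a median log2FC of 1.36, and their summed level was 9.83 to 10.4 in GFP-crush and 8.2 to 8.78 in GFP-naive on the log2 scale (exact permutation test, p = 0.0159). Cd68, a lysosomal protein of phagocytes, was at 6.23, 5.5, 5.83 and 6.14 against 3.35, 3.94, 4.34, 4.19 and 2.94 (log2FC 2.11 ± 0.28). C1qa, which with C1qb makes the complement component that opens the classical pathway, was at 7.36, 6.76, 7.29 and 7.30 against 4.43, 5.23, 5.47, 4.91 and 4.92 (1.97 ± 0.24). Aif1, the microglial antigen Iba1, rose by 1.38 ± 0.24. In each of these the groups did not overlap. Csf1r, the receptor macrophages need for survival, was at 3.25, 2.37, 3.18 and 3.64 against 2.76, 3.32, 2.97, 2.81 and 2.72 and was not called (log2FC 0.21, adjusted p = 0.739). Of the 18 listed macrophage markers, 5 were not in the table. Of the markers of T and NK cells 3 of 11 were measured and none was called. With each other scaling and without covariates 1 of them was higher. The same held without GFP-crush replicate 3, α9k1-crush replicate 2 or 3, or α9k1-naive replicate 1 or 2. No marker of neutrophils or mast cells was measured. Igkc, an antibody light chain and 1 of 2 measured B and plasma cell markers, was at 4.98, 4.59, 4.76 and 4.34 after crush and 9.22, 7.14, 7.50, 8.06 and 6.91 without (-3.19 ± 1.05, adjusted p = 0.0555 in limma). It was not called without GFP-crush replicate 2 (0.125) or 4 (0.104), GFP-naive replicate 2 (0.110) or 4 (0.108), or α9k1-naive replicate 6 (0.114). The part of macrophage RNA in the immune genes above was not tested.

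**Figure D3:**
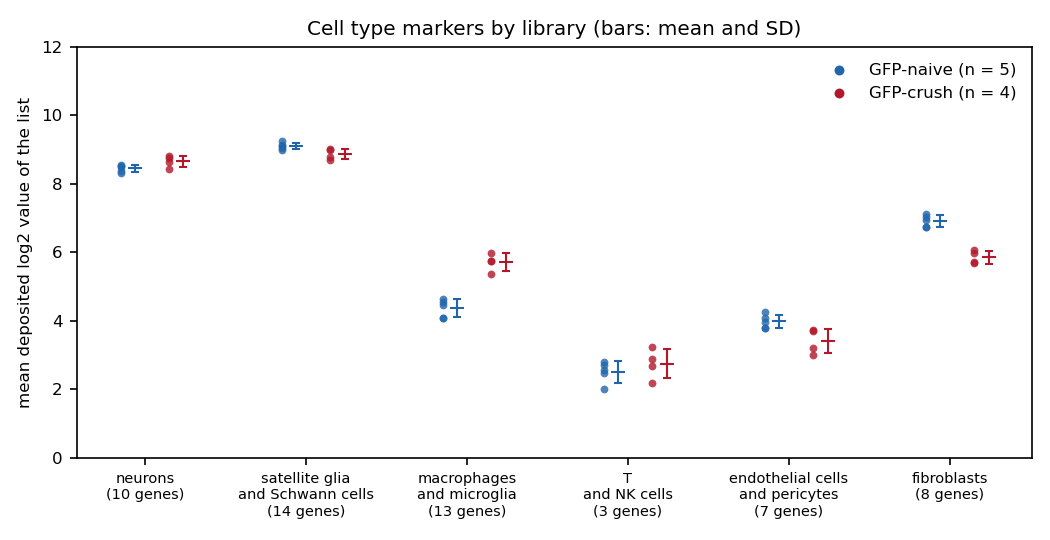
Mean deposited log2 value of the measured members of 6 marker lists in each GFP-naive (blue, n = 5) and GFP-crush (red, n = 4) library, with the group mean and SD. Macrophage markers average 4.36 ± 0.27 without and 5.72 ± 0.26 after crush, and fibroblast markers 6.92 ± 0.17 and 5.85 ± 0.19.

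Complement and pattern receptor genes had 9 members higher and 3 lower of 21 measured (42.9% and 14.3%, against 7.39% and 15.7% of all genes). C1qb rose by 1.95 ± 0.25, while Irak4 and Myd88, which relay Toll-like receptor signals, fell by 0.89 and 0.70 on the log2 scale. Without GFP-crush replicate 2 or GFP-naive replicate 2 only 1 member was lower, and Myd88 lost its call (adjusted p = 0.106 and 0.139), as it did without GFP-crush replicate 4 (0.160).

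**Figure D4:**
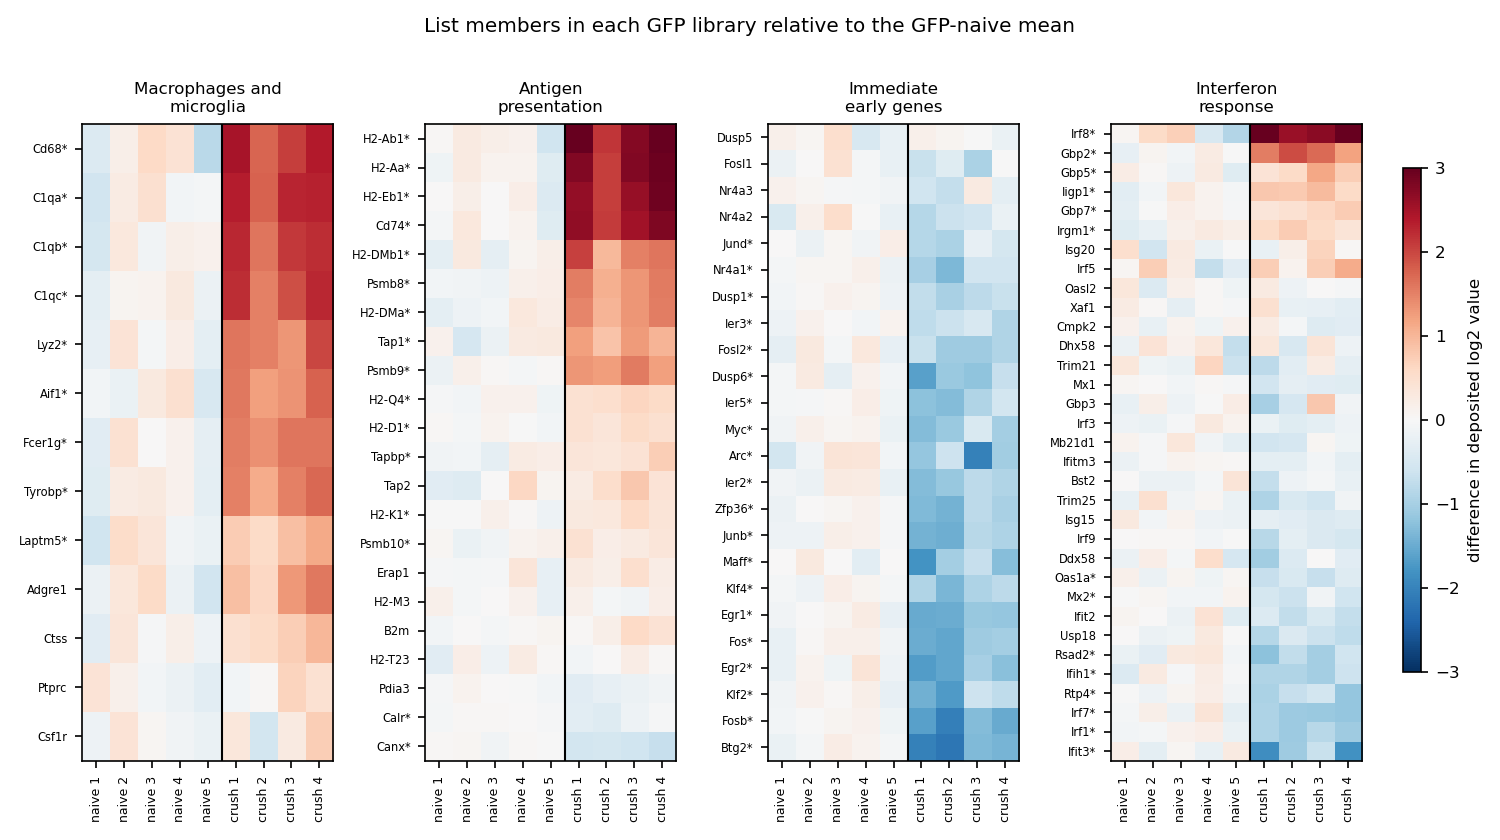
Members of 4 gene lists in each of the 5 GFP-naive and 4 GFP-crush libraries, as the difference of the deposited log2 value from the GFP-naive mean, with the color scale capped at 3 units. Genes are sorted by log2FC and an asterisk marks an adjusted p under 0.1 in limma. Class II genes and C1q are red in all 4 crush libraries, immediate early genes blue, and interferon genes split.

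Interferon response genes moved in both directions. Of 33 measured, 6 rose and 8 fell (18.2% and 24.2%, against 7.39% and 15.7% of all genes), with a median log2FC of -0.27. Gbp2, a guanylate-binding protein of cell-autonomous defence, was at 6.86, 7.26, 7.01 and 6.51 after crush against 5.07, 5.40, 5.23, 5.57 and 5.29 without (log2FC 1.74 ± 0.21, adjusted p = 0.000136 in limma). Ifit3, an antiviral protein, was at 1.60, 2.40, 2.81 and 1.65 against 3.66, 3.18, 3.52, 3.24 and 3.74 (-1.31 ± 0.23, adjusted p = 0.00233). Irf1, a transcription factor of the same family as Irf8, was at 5.83, 5.67, 5.93 and 5.69 against 6.68, 6.70, 6.90, 6.97 and 6.55 (-1.0 ± 0.12, adjusted p = 0.000136). Thus Irf8 and Gbp2 were above, and Irf1 and Ifit3 below, all naive libraries. The members that fell numbered 5 without GFP-naive replicate 2, with quantile normalization or with median centring, and 15 without covariates, when 7 rose.

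The promoters of these 4 genes are shown because genes that moved in opposite directions carry the same interferon motif. They are from RefSeq on GRCm38.p6 and run from 250 bases before to 50 after the start of the gene, all on the plus strand. Capitals mark matches on either strand to the core of the interferon-stimulated response element (GAAA, any 2 bases, GAAA) in Gbp2 and Ifit3, and to TTCNNNGAA, the gamma-activated site bound by STAT dimers, in Irf8 and Irf1.
Gbp2 (rose), chr3:142620413-142620712: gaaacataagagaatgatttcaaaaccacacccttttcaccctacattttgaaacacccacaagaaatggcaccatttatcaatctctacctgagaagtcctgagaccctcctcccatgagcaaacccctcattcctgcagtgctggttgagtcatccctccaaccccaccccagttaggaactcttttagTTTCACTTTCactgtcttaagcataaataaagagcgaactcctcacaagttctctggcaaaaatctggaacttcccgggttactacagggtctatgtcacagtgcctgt
Ifit3 (fell), chr19:34583279-34583578: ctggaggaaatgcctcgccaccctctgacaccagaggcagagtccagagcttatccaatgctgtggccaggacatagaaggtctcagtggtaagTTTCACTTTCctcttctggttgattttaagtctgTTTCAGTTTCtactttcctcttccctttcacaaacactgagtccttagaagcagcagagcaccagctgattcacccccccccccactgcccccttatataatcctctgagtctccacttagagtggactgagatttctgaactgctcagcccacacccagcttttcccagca
Irf8 (rose), chr8:120736108-120736407: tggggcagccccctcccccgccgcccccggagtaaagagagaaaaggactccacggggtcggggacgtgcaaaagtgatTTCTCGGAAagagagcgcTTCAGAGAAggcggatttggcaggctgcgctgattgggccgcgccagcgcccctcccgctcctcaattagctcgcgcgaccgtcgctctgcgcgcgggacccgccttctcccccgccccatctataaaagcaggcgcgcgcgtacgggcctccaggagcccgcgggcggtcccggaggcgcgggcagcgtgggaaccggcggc
Irf1 (fell), chr11:53769764-53770063: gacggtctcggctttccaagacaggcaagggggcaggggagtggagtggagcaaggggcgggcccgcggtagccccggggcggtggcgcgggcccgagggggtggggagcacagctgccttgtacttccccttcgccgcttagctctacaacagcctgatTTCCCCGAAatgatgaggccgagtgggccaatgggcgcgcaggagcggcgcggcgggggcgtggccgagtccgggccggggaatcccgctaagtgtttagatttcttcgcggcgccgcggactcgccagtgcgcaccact

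The match begins 59 bases before the start in Gbp2 and 156 and 122 before it in Ifit3, 171 and 153 before it in Irf8 and 90 before it in Irf1. Of 8366 measured genes with a promoter in the table, 3.57% held this core and 8.0% held TTCNNNGAA. Of the interferon genes, 26 of 33 had a promoter there. The response element core was in 4 of the 5 that rose and 4 of the 6 that fell, and TTCNNNGAA in 3 and 2 of them, while among the 15 that were not called 6 held the core and 4 held TTCNNNGAA. Both motifs were in 2 of those that rose and 1 of those that fell. These are matches of letters in a mouse window, and no binding was measured.

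Cytokines and chemokines were split as well, with 7 of 23 measured members higher and 6 lower (30.4% and 26.1%, against 7.39% and 15.7% of all genes). Beside Cxcl13 and Cxcl9, which rose, Cxcl1, a chemokine for neutrophils, was at 2.58, 3.13, 2.52 and 3.11 after crush against 4.25, 4.65, 4.33, 4.44 and 4.37 (log2FC -1.61 ± 0.23, adjusted p = 0.000638 in limma). Il6, a gp130 cytokine that axotomized neurons are known to make, was at 0.37, 0.26, 0.52 and 0.57 against 1.29, 1.49, 1.87, 2.43 and 1.89 (-1.44 ± 0.20), which is close to the floor in both groups. Neither gene overlapped between the groups. In the NF-κB list 3 of 21 measured members were higher and 3 lower (14.3% each, of which the lower share is close to that of all genes). Traf1 and Birc3, which bind TNF receptors, rose by 1.07 ± 0.24 and 0.85 ± 0.19, and the inhibitor Nfkbia fell by 0.70 on the log2 scale (adjusted p = 0.00217). The nuclear inhibitor Nfkbiz was lower by 0.81 ± 0.26 (adjusted p = 0.0510), and not called without GFP-crush replicate 2 (0.178) or GFP-naive replicate 2 (0.182), when 1 member of the list was lower. With quantile normalization, median centring or removal of GC and length trends, 7 members were higher and 2 lower. Socs1, a feedback inhibitor of cytokine receptors, was at 4.2, 3.41, 4.06 and 3.94 against 4.89, 4.97, 5.16, 5.33 and 4.77 (-1.09 ± 0.14, adjusted p = 0.000269).

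Immediate early genes, which cells transcribe within minutes of activity or stress, were lower after crush almost throughout the list. Of 24 measured, 20 fell and none rose (83.3%, against 15.7% of all genes), with a median log2FC of -1.04. The count of 20 was the same with quantile normalization, median centring and removal of GC and length trends, and was 20 to 22 with any 1 library left out. Btg2 (chromosome 1, 134075170 to 134079120), an antiproliferative target of p53, was at 5.15, 5.02, 5.86 and 5.78 against 6.98, 7.13, 7.39, 7.28 and 7.12 (log2FC -1.88 ± 0.19, adjusted p = 4.06e-05 in limma). Fosb, an AP-1 subunit, was at 4.44, 4.04, 4.77 and 4.58 against 6.00, 6.06, 6.17, 6.22 and 5.94. Fos, its best known relative, was at 9.23, 9.15, 9.65 and 9.70 against 10.49, 10.74, 10.85, 10.87 and 10.60 (-1.38 ± 0.15). In these genes crush replicates 1 and 2 were lower than 3 and 4, and all 4 were below the naive libraries. Egr1, a zinc finger factor, fell by 1.26 on the log2 scale, and Klf4 by 1.26. The mean of the list was 4.5 to 4.85 in the GFP-crush and 5.53 to 5.79 in the GFP-naive libraries.

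The inducible heat shock genes Hspa1b and Hspa1a were lower too. Hspa1b (chromosome 17, 34956436 to 34959238) was at 6.07, 6.19, 7.01 and 6.64 in GFP-crush and 8.49, 8.49, 8.41, 8.72 and 8.49 in GFP-naive (log2FC -2.17 ± 0.19, adjusted p = 1.74e-05 in limma). Its near-identical copy Hspa1a was at 4.02, 4.30, 4.79 and 4.57 against 6.21, 6.35, 6.36, 6.61 and 6.31, and the 2 genes cannot be counted as independent. Of the 40 measured genes of the heat shock and unfolded protein response, 10 fell and 2 rose (25% and 5.0%, against 15.7% and 7.39% of all genes), and 5 rose with median centring or without covariates. Those that rose were Asns, an amino acid synthetase that ATF4 induces (0.56 ± 0.16), and Hspb8, a small chaperone (0.29 ± 0.10). Hspb8 was not called without GFP-crush replicate 1 (0.13), GFP-crush replicate 2 (0.230), GFP-naive replicate 2 (0.278), GFP-naive replicate 4 (0.107) or α9k1-crush replicate 3 (0.125). Of the growth arrest and apoptosis genes 6 of 19 fell (31.6%), among them Gadd45g, a stress-induced growth arrest gene, at 7.13, 6.98, 7.46 and 7.34 against 8.52, 8.54, 8.79, 8.74 and 8.62 (-1.48 ± 0.15), and the survival factor Bcl2 (-1.06 ± 0.25). The cell cycle inhibitor Cdkn1a rose by 1.10 ± 0.32, and was not called without GFP-naive replicate 2 (adjusted p = 0.134) or replicate 3 (0.107).

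Genes known from cut peripheral axons showed no joint increase 8 weeks after the central crush. Of 26 measured, 2 were higher and 6 lower (7.69% and 23.1%, against 7.39% and 15.7% of all genes), with a median of -0.16. Atf3 was at 6.46, 6.84, 6.33 and 6.46 after crush and 7.02, 7.11, 7.10, 7.23 and 6.94 without (log2FC -0.59 ± 0.17, adjusted p = 0.0308 in limma). Jun was at 7.15, 7.31, 7.56 and 7.35 against 8.14, 8.02, 8.19, 8.23 and 8.14 (-0.76 ± 0.12, adjusted p = 0.00158). Both were lower in every crush library than in any naive one, and both also belong to the stress-inducible genes. Gap43, a growth cone protein, was at 9.06, 8.75, 9.09 and 9.19 against 8.81, 9.05, 8.74, 8.82 and 9.08, with groups that overlap (0.05 ± 0.27, adjusted p = 0.927). Sprr1a was at 3.54, 3.20, 0.34 and 2.02 against 1.65, 2.46, 1.08, 1.74 and 2.10, and the neuropeptide galanin (Gal) at 6.38, 8.12, 8.2 and 6.59 against 6.89, 7.31, 6.90, 6.49 and 7.23. Neither was called (adjusted p = 0.586 and 0.966). The spread of both after crush was wider than without it (SD 1.45 and 0.97 against 0.52 and 0.33).

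The members that rose were Tubb6, a tubulin (0.60 ± 0.11), and Npy, the neuropeptide Y gene that large sensory neurons are known to switch on after axotomy. Npy was at 9.30, 9.47, 5.53 and 9.14 in the GFP-crush and 5.49, 5.98, 5.97, 4.21 and 4.18 in the GFP-naive libraries (log2FC 3.96 ± 0.83, a 15.5-fold difference, adjusted p = 0.00711 in limma). Crush libraries 1, 2 and 4 were more than 3 log2 units above all naive ones, and replicate 3 was within the naive range. Npy was called with any 1 library left out. Of the other neuropeptides, Grp fell (-1.01 ± 0.19) and Chgb, a granule protein, rose (0.68 ± 0.20), but Chgb was not called without GFP-crush replicate 1 (0.113), GFP-crush replicate 2 (0.129) or GFP-naive replicate 2 (0.13).

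Among markers of neuronal subtypes, none of 7 peptidergic nociceptor genes was called, of 4 C-fibre low-threshold mechanoreceptor genes none was called but 1 was higher with each other scaling and without covariates, and of 9 nonpeptidergic nociceptor and itch genes 1 was higher and 1 lower (11.1% each, against 7.39% and 15.7% of all genes). The higher one, Mrgprb4, lost its call in 12 and the lower one, P2rx3, in 9 of the 19 fits without 1 library. Among A-fibre mechanoreceptor and proprioceptor genes 4 of 13 were higher and 1 lower (30.8% and 7.69%), and 2 were higher without GFP-naive replicate 2. Pvalb, a calcium buffer of proprioceptors, was at 8.41, 8.22, 7.25 and 7.18 after crush and 7.42, 5.30, 6.85, 5.34 and 5.94 without (log2FC 1.74 ± 0.48, adjusted p = 0.0258 in limma, and 0.112 without GFP-naive replicate 2). Runx3, the transcription factor that sets proprioceptor fate, was at 2.94, 2.94, 2.14 and 2.01 against 2.72, 1.08, 1.96, 1.95 and 1.58 (1.26 ± 0.30, adjusted p = 0.0135 in limma). Without covariates its log2FC was 0.65 and it was not called (adjusted p = 0.137). The groups overlapped in both genes. Slc17a7, the vesicular glutamate transporter of large neurons, did not overlap, with 6.94, 7.66, 6.84 and 6.89 against 6.68, 6.23, 6.02, 5.96 and 6.01 (1.06 ± 0.23). Ntrk2, the BDNF receptor, was lower, at 5.37, 5.35, 5.92 and 5.6 against 6.70, 6.72, 6.74, 6.87 and 6.46 (-1.16 ± 0.16, adjusted p = 0.000424). Satellite glia express Ntrk2 as well.

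Potassium, sodium and calcium channel lists had called members in both directions, and in each the share that fell was below that of all genes. Of 9 calcium channel genes 1 rose and 1 fell (11.1% each). The member that rose, Cacng2, lost its call in 6 of the 19 fits without 1 library. Of 30 measured potassium and HCN channels 4 rose and 4 fell (13.3% each, against 7.39% and 15.7% of all genes). Kcnk1, a background potassium channel, was at 5.79, 6.25, 5.27 and 5.58 against 5.30, 4.5, 5.07, 4.66 and 4.26 (1.22 ± 0.31, adjusted p = 0.0183 in limma), with 1 crush library inside the naive range. With quantile normalization, median centring or removal of GC and length trends 2 of these channels fell. Without GFP-naive replicate 2 or GFP-crush replicate 2, 2 of these channels rose and 2 fell, 2 rose without GFP-naive replicate 3, and 2 fell in 8 other fits without 1 library. Of 9 sodium channel genes 1 rose and 1 fell (11.1% each), the latter the pain channel Scn9a, with 3.08, 3.16, 3.01 and 2.83 against 3.70, 4.0, 3.77, 3.75 and 3.95 (-0.88 ± 0.16, adjusted p = 0.00353). Among GABA, glutamate and opioid receptors 5 of 23 fell and none rose (21.7%, against 15.7% of all genes falling), though 2 rose with quantile normalization or without covariates. Grin2b, an NMDA receptor subunit, had the largest decrease of them, at 4.05, 4.06, 4.38 and 3.29 against 4.82, 5.25, 5.66, 4.94 and 5.42 (-2.04 ± 0.26, and -1.27 without covariates). The count of 5 was 2 without GFP-naive replicate 2 or with GC and length trends removed, and 3 without GFP-crush replicate 1, 2 or 4.

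Several cytoskeletal genes of the axon rose. Of 40 tubulin, neurofilament and microtubule protein genes 16 rose, 1 fell and 23 were not called (40.0% higher, against 7.39% of all genes), and 9 rose without GFP-naive replicate 2, 10 without GFP-crush replicate 2 and 10 with quantile normalization. The mean level of the list overlapped between the groups (7.35 to 7.61 after crush and 7.18 to 7.36 without). Nefl, the light neurofilament, was at 12.21, 12.58, 11.72 and 11.89 against 11.52, 10.91, 11.36, 11.08 and 11.50 (log2FC 1.02 ± 0.24, adjusted p = 0.0116 in limma). Map1b, a microtubule protein of growing axons, was at 10.20, 9.75, 9.73 and 9.75 against 8.79, 8.01, 8.90, 7.97 and 9.06 (1.16 ± 0.31, adjusted p = 0.0223, and 0.109 without GFP-naive replicate 2). Tubb3, a neuronal tubulin, rose by 0.55 ± 0.13. Each of these was higher in all crush libraries. The summed level of the neuronal markers, several of them in this list, was 13.3 to 13.5 in GFP-crush and 12.8 to 13.1 in GFP-naive (exact permutation test, p = 0.0159), and its part in these increases was not tested. Without the most abundant marker, Uchl1, the sums overlapped, at 12.26 to 12.69 in GFP-crush and 12.01 to 12.29 in GFP-naive (exact permutation test, p = 0.0476). The mean of the 10 markers overlapped between the groups (8.44 to 8.81 and 8.31 to 8.56), and 4 of the 10 were called higher, or 2 without GFP-crush replicate 1 or GFP-naive replicate 2. Rbfox3, another neuronal marker, was not called (-0.19 ± 0.16, adjusted p = 0.428).

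Respiratory chain and proteasome genes had many small increases, in numbers that depended on single libraries and on the scaling. Of 73 respiratory chain subunits 28 rose and 1 fell (38.4% and 1.37%, against 7.39% and 15.7% of all genes), with a median of 0.23, but 3 rose without GFP-naive replicate 2 or GFP-crush replicate 1, 4 without GFP-crush replicate 2, 11 without GFP-naive replicate 3 and 14 without GFP-naive replicate 4, and 6 with quantile normalization, while 48 rose with median centring and 50 without covariates. Cox5a, a cytochrome c oxidase subunit, was at 9.23, 9.07, 9.09 and 9.19 against 8.50, 8.32, 8.60, 8.32 and 8.58 (0.56 ± 0.10, adjusted p = 0.00282 in limma). Of 32 proteasome genes 12 rose and none fell (37.5%), and 5 rose without GFP-naive replicate 2, 6 without GFP-crush replicate 2, 25 with median centring and 23 without covariates. Psmc1 and Psmc5, which unfold its substrates, rose by 0.46 ± 0.11 and 0.45 ± 0.09.

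Fibroblast markers were lower in most members. Of 8 fibroblast markers 6 fell and none rose (75%, against 15.7% of all genes falling), or 3 without GFP-naive replicate 2, and their summed level was 9.57 to 10.1 in GFP-crush and 10.9 to 11.4 in GFP-naive. The proteoglycan Dcn was at 6.90, 6.60, 6.87 and 7.17 against 8.42, 8.58, 8.84, 8.69 and 8.48 (log2FC -1.67 ± 0.57, adjusted p = 0.0649 in limma). Although its groups were well apart, it was not called without GFP-naive replicate 2 (0.184), GFP-crush replicate 1 (0.153) or replicate 4 (0.116), or α9k1-crush replicate 3 (0.107) or replicate 4 (0.101). Of the vessel and pericyte genes 3 of 7 fell (42.9%), among them Pdgfrb, a pericyte receptor (-1.52 ± 0.31), but their summed level overlapped between the groups (6.53 to 7.38 against 6.92 to 7.47, exact permutation test, p = 0.397). Without its most abundant gene, the tight junction protein Cldn5, the sum was 5.22 to 5.98 against 6.08 to 6.55 (exact permutation test, p = 0.0159). Myoc, a secreted glycoprotein, was at 4.13, 3.51, 4.55 and 3.85 against 6.09, 6.26, 6.50, 6.48 and 6.32 (-2.38 ± 0.48), the largest decrease among called protein-coding genes with separate groups and a level of at least 4 in the higher one, and Vtn, the plasma and matrix protein vitronectin, fell by 1.90 on the log2 scale.

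Of 14 satellite glia and Schwann cell genes 5 fell and 1 rose (35.7% and 7.14%, against 15.7% and 7.39% of all genes), while the mean level of the list overlapped between the groups (8.70 to 9.02 and 9.0 to 9.24). Their summed level was 15.2 to 15.5 in GFP-crush and 15.8 to 16.2 in GFP-naive (exact permutation test, p = 0.0159), but Apoe, a lipid carrier, made up 59.5% to 64.6% and 76.8% to 79.3% of it. Without Apoe the sum was 13.7 to 14.2 after crush and 13.6 to 13.9 without (exact permutation test, p = 0.222), so the lower sum rests on this gene. Apoe was at 14.61, 14.55, 14.86 and 14.75 after crush and 15.56, 15.59, 15.63, 15.87 and 15.48 without (-0.93 ± 0.15, adjusted p = 0.00122 in limma). It is the highest gene of all 9 libraries, and quantile normalization, which sets the highest gene to 1 value in every library, gives it a log2FC of 0. Fabp7, a lipid-binding protein of satellite glia, fell by 1.05 on the log2 scale. The member that rose was Mbp, a myelin protein (0.79 ± 0.25), which was not called without GFP-crush replicate 4 (0.114) or α9k1-naive replicate 6 (0.108).

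Receptors and ligands of developmental pathways were lower in several lists. Of 28 Wnt and Notch genes 14 fell and none rose (50%, against 15.7% of all genes), and 10 to 15 fell with any 1 library left out. They include Fzd3, a Wnt receptor of axon guidance (-1.22 ± 0.19), and Jag1, a Notch ligand (-1.20 ± 0.26). Of 28 axon guidance genes 9 fell and 1 rose (32.1% and 3.57%), or 5 fell without GFP-naive replicate 2 or with GC and length trends removed, with the semaphorin receptor Plxnb2 lowest (-1.26 ± 0.16) and the ligand Sema4a, which immune cells also carry, higher (1.15 ± 0.19). Of 28 integrin and adhesion adaptor genes 8 fell and 3 rose (28.6% and 10.7%), or 4 fell under either of these changes. Itgav (-1.32 ± 0.24) and Itgb8 (-1.06 ± 0.13), whose products pair to bind latent TGF-β, fell, and Itga5, a fibronectin receptor chain, rose (1.31 ± 0.30). Reln, a secreted guidance protein, was at 4.37, 4.41, 4.80 and 4.2 against 5.77, 5.85, 5.71, 5.96 and 5.75 (-1.59 ± 0.15, adjusted p = 1.87e-05 in limma).

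Cholesterol synthesis and uptake genes were lower in 16 of 34 and higher in none (47.1%), and 10 were lower without GFP-naive replicate 2 or with median centring and 8 without GFP-crush replicate 2. Fasn, the fatty acid synthase, fell by 1.10 and the lipoprotein receptor Lrp1 by 1.17 on the log2 scale. Clock genes were lower in 6 of 17 (35.3%, against 15.7% of all genes), with Nfil3 (-1.37 ± 0.31) and Rora (-1.29 ± 0.23) lowest. Long genes fell more often than short ones: 24.1% of genes with over 6884 exonic bases were lower and 3.45% higher, against 9.0% and 9.87% of those up to 1528 bases. The cause was not tested.

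Of the remaining lists, transmitter release genes had 8 of 36 members higher and 1 lower (22.2% and 2.78%, against 7.39% and 15.7% of all genes), and 4 higher without GFP-crush replicate 1, GFP-crush replicate 2 or GFP-naive replicate 2. The member that fell was Syt1, a calcium sensor of vesicle fusion, at 4.25, 4.08, 4.29 and 4.06 against 5.17, 5.27, 5.26, 5.39 and 5.18 (log2FC -1.05 ± 0.21, adjusted p = 0.00474 in limma). Its groups were clearly apart while Snap25, its partner in fusion, had a higher estimate (0.58 ± 0.17) that was not called without GFP-crush replicate 1 (0.106), GFP-crush replicate 2 (0.13) or GFP-naive replicate 2 (0.115). Of 17 protease inhibitor and acute phase genes 2 rose and 6 fell (11.8% and 35.3%), or 2 fell when GFP-naive replicate 2 was dropped and 3 when GFP-crush replicate 1 was or with median centring. Beside Slpi, Serpinb9, an inhibitor of granzyme B, rose (0.59 ± 0.14), and the metalloproteinase inhibitors Timp3 (-0.84 ± 0.19) and Timp4 (-0.78 ± 0.14) fell. Of 20 BMP and TGF-β genes 6 fell (30%), or 3 without GFP-naive replicate 2 or with quantile normalization or median centring, among them the coreceptor Tgfbr3 (-1.04 ± 0.19). Of 56 autophagy and lysosome genes 9 rose and 8 fell (16.1% and 14.3%, against 7.39% and 15.7% of all genes), with 3 and 5 without GFP-naive replicate 2 and 17 and 4 with median centring. Ctsz, a lysosomal protease that macrophages also carry, rose (0.69 ± 0.15), and Ulk1, which starts autophagy, fell (-0.81 ± 0.22). Of 47 ribosomal protein genes 8 fell (17.0%, close to the 15.7% of all genes), or 3 without GFP-crush replicate 1, 2 with median centring and 3 without covariates, and their many processed copies make the split of reads uncertain.

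The crush effect was then set against that in α9k1 libraries, in which the axons carried an integrin and its activator. The difference between the effects was called in 278 genes (2.2%), a number that depended on single libraries and on the covariates. It was 118 without GFP-naive replicate 3, 120 when leaving out α9k1-crush replicate 4, and 124 without GFP-crush replicate 2. With the replicate number as a block it was 26, and that fit kept the difference of Slpi but not those of Cxcl13, Irf8, H2-Aa and Gal. Leaving out GFP-naive replicate 4 gave 158 genes, α9k1-naive replicate 4 gave 161, α9k1-crush replicate 2 gave 441, and a fit with no covariates gave 4970. Of the 933 genes that rose in GFP libraries 76 were among the 278, in 65 with a smaller or opposite effect in α9k1. Of the 1984 that fell 77 were, in 67 of them likewise. The GFP effect that selected these genes is also subtracted in the difference. The selection thus favored a smaller effect in α9k1, and no conclusion is drawn from these counts. In α9k1 libraries 159 of the 933 and 387 of the 1984 were called in the same direction, and 10 and 27 in the opposite one. Slpi had a log2FC of -1.91 ± 0.87 in α9k1, which was not called (adjusted p = 0.222, difference -8.2 ± 1.0, adjusted p = 0.00195 in limma). The 4 α9k1-crush libraries averaged 5.07 ± 0.50 (SD) and the 6 α9k1-naive ones 6.18 ± 0.50, between those of GFP-naive and GFP-crush. Cxcl13 was high in α9k1 libraries with crush and without it, at 7.91 ± 0.45 and 7.77 ± 0.37, as were Irf8 at 4.32 ± 0.28 and 5.16 ± 0.38 and H2-Aa at 7.67 ± 0.27 and 7.57 ± 0.23. The differences in effect were -2.90 for Cxcl13, -3.40 for Irf8 and -2.12 for H2-Aa, and none of them was called without α9k1-crush replicate 4 (adjusted p = 0.105, 0.104 and 0.102) or GFP-naive replicate 4 (0.106, 0.125 and 0.118), nor those of Cxcl13 and H2-Aa without α9k1-naive replicate 4 (0.105 and 0.106) or GFP-naive replicate 3 (0.13 and 0.107). All 3 had their lowest group mean in GFP-naive libraries, and within α9k1 libraries none was called (adjusted p = 0.345, 0.806 and 0.531).

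Among immediate early genes the difference was called in none of the 24, at an adjusted p of 0.312 for Fos and 0.392 for Egr1 in limma. It was called in 2.2% of all genes, so a list of this size can hold none without being special. The count does not show that the effects were alike. Among 19 neuropeptides the difference was called in 2, Gal and Adcyap1, against 2.2% of all genes. Gal had no call in GFP and a decrease in α9k1 libraries (-3.92, adjusted p = 0.00672, difference -3.88, adjusted p = 0.0379). The difference was -2.08 without covariates, and its adjusted p was 0.151 without GFP-crush replicate 2. Adcyap1, the precursor of PACAP, had no call in GFP either (0.35, adjusted p = 0.479) and a decrease in α9k1 (-2.03, adjusted p = 0.0466), with a difference close to the threshold (adjusted p = 0.0993). The standard errors were larger in α9k1 libraries in these genes (0.27 against 0.15 for Fos).

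**Figure D5:**
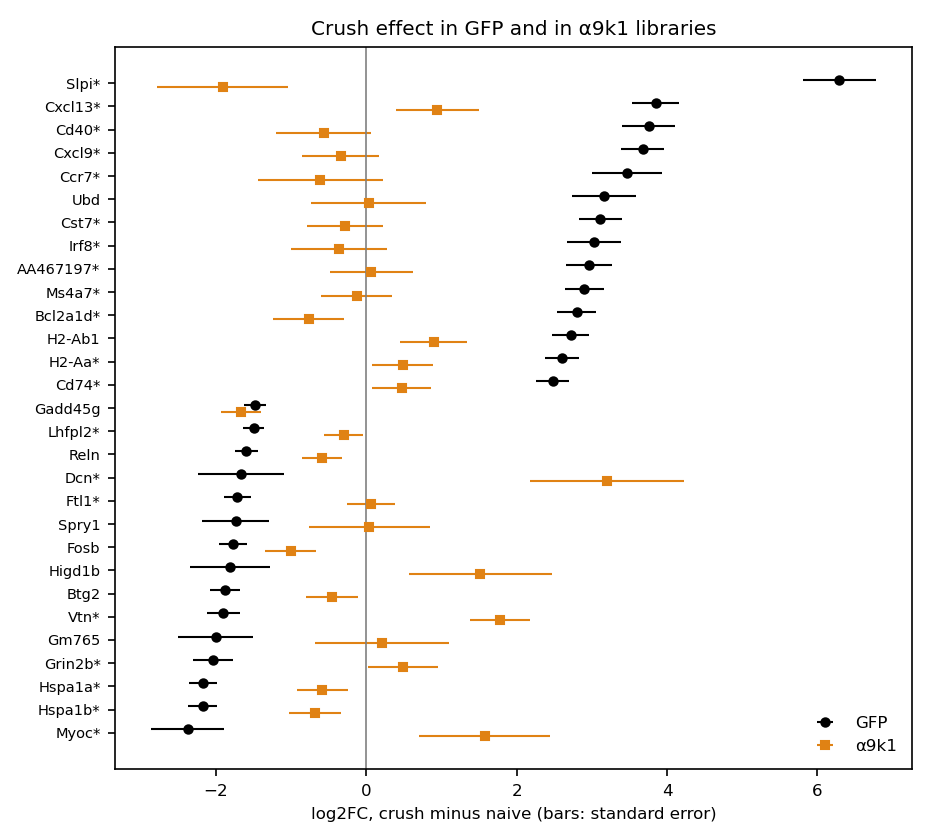
log2FC of crush minus naive in GFP (black circles) and α9k1 libraries (orange squares) for the 29 genes with the largest or most significant change in GFP, with standard errors from limma. An asterisk marks a difference between the effects at an adjusted p under 0.1. For Slpi the values are 6.29 and -1.91.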

How the data were processed

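RNA of FACS-sorted GFP-positive DRG cells was amplified with SMART-Seq v4. The authors aligned reads with STAR to mm10/GRCm38, counted genes with Salmon and deposited log2 counts normalized with cqn for 12629 genes. These are not raw counts, so no count model was used. Genes stand in a separate deposited table in the same order (r = 0.959 between its mean log2 value and that of the expression table, and 0.081 after a shift by 1 row), whose columns with the fold changes and p-values of the study's own comparisons were not used. The deposited Picard metrics hold counts of reads and bases, fractions, percent dropout and ratios of coverage, with the duplicate columns shifted.

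limma 3.58.1 (R 4.3.3) was fitted to all 19 libraries with group and the first 3 principal components of 48 scaled metrics. p-values were 2-sided, adjusted by Benjamini-Hochberg over all genes and called under 0.1. The batch term of the study's model is not in the labels and was left out. On simulated data, 17.5%, 76.5% and 93.5% of genes changed by 0.5, 1 and 2 log2 units were recovered. The simulation used normal noise and changed far fewer genes than were called in the data, so these shares do not give the power of the comparison itself. Exact permutation tests compared 22 metrics and marker sums. Python 3.11.15 was used for tables and figures.

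Among called protein-coding genes with separate groups and a level of at least 4 in the higher group, the 12 with the largest change and the 5 with the smallest adjusted p were named in each direction. Also named were up to 2 called members of each of 46 gene lists in each direction, and a fixed set of marker genes, 138 in all after leaving out some genes that are not reported here. Members and lists were chosen with earlier results of these data known. Alternatives were other covariates, libraries, scalings, filters, weights, thresholds and a replicate block, and for the difference between α9k1 and GFP effects all but the fit without covariates were added after the data were seen, as were marker sums without the most abundant gene. The depth is unknown per gene, and the number of libraries limits the precision.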

Additional observations from a re-analysis of the deposited data

Results flagged for a closer look

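Of 276 groups of libraries examined, 17 held 1 library far from the rest, and chance alone gives about 1 in 20. GFP-crush replicate 2 stood apart in 6 genes on the deposited log2 scale: Cxcl9 at 7.70, AA467197 at 4.24, C1qa at 6.76, Mgp at 5.02, Sema4a at 3.97 and Slc17a7 at 7.66, lower than the other crush libraries in all but Slc17a7. GFP-crush replicate 3 stood apart in Npy at 5.53, where the median of the group was 9.22, in Acta2 at 3.69, Klf7 at 5.71 and Itgb8 at 5.53. GFP-crush replicate 1 did so in Map1b at 10.20. Among naive libraries these were replicate 5 in Bcl2a1d at 3.21 and H2-Ab1 at 5.69, replicate 4 in Hspa1b at 8.72 and Pafah1b1 at 5.22, replicate 1 in P2rx3 at 7.41 and replicate 3 in mt-Nd2 at 6.25.

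The crush effect differed between α9k1 and GFP libraries in 28 of the named genes by the limma test of the difference, given here as the log2FC in α9k1 minus that in GFP. With 1 library left out 13 to 28 of them were called, the fewest without GFP-naive replicate 3 (13), GFP-naive replicate 4 or α9k1-crush replicate 4 (14 each), α9k1-naive replicate 4 (15) and GFP-crush replicate 2 (16). That of Gbp2 was called in 5 of the 19 such fits. Without covariates 6 of the 28 were smaller by over 1.5 times, Dcn at 2.20, Myoc at 2.02, Ftl1 at 1.08, Hspa1a at 0.98, Irak4 at 0.37 (not called) and Gal at -2.08, and Fabp7 was larger at -1.85. The third covariate differed between the α9k1 groups, with means of 3.56 with crush and -1.73 without, and groups held 74.5% of its variance. With the covariates, the difference between the effects was negative for Slpi (-8.20), Cd40 (-4.32), Ccr7 (-4.08), Cxcl9 (-4.02), Gal (-3.88), Bcl2a1d (-3.57), Irf8 (-3.40), Cst7 (-3.39), Ms4a7 (-3.03), Cxcl13 (-2.90), AA467197 (-2.89), H2-Aa (-2.12), Cd74 (-2.01), Gbp2 (-1.58), Birc3 (-1.52), Fabp7 (-1.23) and Tubb6 (-0.92). It was positive for Dcn (4.87), Myoc (3.95), Vtn (3.67), Slc17a7 (3.20), Grin2b (2.53), Ftl1 (1.78), Hspa1a (1.59), Hspa1b (1.49), Itgb8 (1.46), Lhfpl2 (1.20) and Irak4 (1.02). Adjusted p ranged from 0.00195 for Slpi and Vtn to 0.0960 for Gbp2.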

How the results depend on the processing

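The number of genes higher and lower after crush was 523 and 1262 at an adjusted p under 0.05, 262 and 662 in a fit to the 9 GFP libraries with the covariates, 1826 and 1180 after median centring, and 1242 and 1226 with trends of GC content and length removed. With 1 library left out the counts ranged from 445 to 1032 and from 1057 to 2143, the lowest of each without GFP-naive replicate 2. The difference in effect between α9k1 and GFP was called in 278 genes with covariates and 4970 without, and in alternatives chosen after the data were seen in 137 at an adjusted p under 0.05, 550 with array weights, 26 with the replicate block and 118 to 441 with 1 library left out. The block kept 4 of the 28 named differences, those of Slpi, Bcl2a1d, Vtn and Slc17a7, and none of the 28 changed sign. With the replicate number as a block 869 genes were higher and 1865 lower, and 121 of 130 named calls were kept. The deviations of libraries with the same number were correlated at 0.0354, 0.0692, 0.117 and 0.0562, of which 1 of 4 is over 0.1, and those of different numbers at -0.132 to 0.113. Crush libraries correlated best with their own number in 2 of 4. Whether the numbers pair the libraries is not given in the sources used here, and they were not treated as pairs.

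Of 130 named genes called, 98 were called with any 1 library left out, and no called gene changed sign under any alternative, though Apoe was at 0 with quantile normalization. Genes that were not called and changed sign were Fermt1 (-0.0692 in GFP libraries with covariates, -0.0486 without covariates), Gap43 (-0.0738 with quantile normalization, -0.0565 to 0.22 with 1 library left out), Gal (0.36 without covariates, 0.10 with median centring, -0.34 to 0.16 with 1 left out), Rbfox3 (0.0115 with GC and length trends removed) and Csf1r (-0.0077 in GFP libraries with covariates, -0.0640 with the block, -0.0369 to 0.61 with 1 left out). The summed glial level, in an alternative chosen after the data were seen, was 0.16 log2 units higher after crush without Apoe against -0.62 with it. The causes were not tested. Fitted to the GFP libraries alone with covariates, 87 of the 130 were called, and without covariates 123.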
